A study of Mus musculus with 17 samples.

Results

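Neutrophil granule and calprotectin genes were followed by RNA-seq in colon macrophage preparations of mice. The genes were S100a8, S100a9, Ngp, Ltf, Camp, Retnlg, Elane and Mpo, found by the NCBI gene numbers that map to these symbols, and all 8 stood among the 27179 genes of the count tables. The 17 libraries came from C57BL/6(h-2b) mice of 8 weeks, with 1 mouse named per library, and were MCJ-deficient (KO) or wild type (WT). Libraries are named by genotype, condition and library number (KO_PP_23), which is not the mouse's number. MCJ is the mitochondrial protein that Dnajc15 encodes. NN (2 KO and 3 WT libraries) was taken as untreated because its titles name no treatment, although its libraries carry the same treatment protocol text as the others, so that values against NN rest on the titles. In NP, mice had DSS (dextran sulfate sodium, which damages the gut lining) for 6 days and no antibiotic (3 KO and 3 WT). In PP, mice had a broad-spectrum antibiotic for 7 days and then DSS for 6 days (3 KO and 3 WT). The preparations were made by washing and collagenase digestion of colon tissue, and the labels name no sorting step. Neither the allele nor the cells in which MCJ is missing is described in the labels.

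Neutrophils build their granules in sequence while they mature in the bone marrow. Azurophil granules come first, with myeloperoxidase and elastase, specific granules follow, with lactoferrin, the cathelicidin Camp and the cathelin-like protein Ngp, and gelatinase granules come last. Their mRNAs are made mainly in the marrow stages, so that circulating neutrophils carry little of the early ones, whereas S100a8 and S100a9, the calcium-binding subunits of the cytosolic complex calprotectin, stay abundant in mature neutrophils and are also made by inflammatory monocytes. Calprotectin binds zinc and manganese, limits bacterial growth and is measured in stool as a marker of gut inflammation.

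Each library held between 29194744 and 37083344 counts. Dnajc15 was lower in every KO library, with 0.508 to 3.34 CPM against 17.5 to 52.6 CPM in WT libraries. Levels are CPM, that is, read counts over library size after TMM scaling. Each of 9 macrophage markers (among them Adgre1, Csf1r and C1qa) had reads in every group, and their summed level lay between 9.54 and 1150 CPM. Markers of colonocytes, the absorptive epithelium, summed to more in every library, at 4900 to 18200 CPM. In such mixed samples, fewer cells of a type and less RNA per cell cannot be told apart.

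Transcripts of the calprotectin genes were near the detection limit in NN and far above it in both DSS conditions. S100a8 had 0.132 and 0.206 CPM in the KO libraries of NN, against 0.409, 0.438 and 0.879 CPM in WT. These levels rest on 5 and 8 reads in KO and on 10, 9 and 23 reads in WT. In NP, S100a8 had 151, 138.5 and 56.3 CPM in KO, against 176, 121 and 251 CPM in WT, and the genotypes overlapped. In PP, S100a8 had 467, 2378 and 603 CPM in KO, against 231, 63.2 and 254 CPM in WT. Every KO library of PP lay above every WT library, and KO_PP_23 lay far above the other 2 KO libraries.

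S100a9, the partner subunit, differed less between the genotypes in PP. It had 0.184 and 0.334 CPM in the KO libraries of NN, against 0.409, 0.438 and 0.612 CPM in WT. In NP it had 165, 148 and 66.5 CPM in KO, against 243, 139 and 270 CPM in WT. In PP it had 267.5, 1919 and 418 CPM in KO, against 266, 106 and 326 CPM in WT. KO_PP_22 lay below WT_PP_12, so that the genotypes overlapped in S100a9 where they did not in S100a8.

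Among the granule genes, Ngp gave the widest contrast between genotypes in PP. Ngp encodes a neutrophilic granule protein of the cathelin family. In NN it had 0 and 2 reads in KO, and 1, 1 and 0 reads in WT. In NP it had 3.46, 1.83 and 2.54 CPM in KO, against 1.26, 1.11 and 4.24 CPM in WT. In PP it had 89.7, 161 and 51.0 CPM in KO, against 4.08, 0.029 and 2.15 CPM in WT. Every KO library of PP lay above every WT library, and WT_PP_11 held a single read.

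Ltf, which encodes the iron-binding lactoferrin, was rarer. It had no read in KO and 1 read in WT in NN. In NP, Ltf had 0.23, 1.10 and 0.231 CPM in KO, against 2.16, 0 and 0.548 CPM in WT. In PP, Ltf had 11.8, 8.99 and 2.67 CPM in KO, against 2.19, 1.65 and 0.423 CPM in WT, and the genotypes did not overlap. Camp, the cathelicidin precursor whose peptide kills bacteria, had no read in NN. Camp reads in NP came from 1 library of each genotype, with 3 reads in KO_NP_20 and 7 reads in WT_NP_9. In PP, Camp had 101, 65 and 0 reads in KO, against 10, 0 and 26 reads in WT.

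Retnlg, a resistin-like secreted protein found in mouse neutrophils and marrow, followed another order. In NN it had 4.00 and 2.24 CPM in KO (152 and 87 reads), against 0, 0.34 and 0.268 CPM in WT (0, 7 and 7 reads). In NP it had 53.3, 139.5 and 85.1 CPM in KO, against 54.3, 31.3 and 38.1 CPM in WT. In PP it had 54.3, 359 and 205 CPM in KO, against 766, 32.6 and 402 CPM in WT. KO libraries were above WT in NN, and in PP the highest and the lowest Retnlg level both came from WT.

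Elane and Mpo, of the azurophil granules, were almost absent. Elane, which encodes neutrophil elastase, had 13, 0 and 2 reads in the KO libraries of PP and no read in any other library. Mpo, which encodes myeloperoxidase, had 10 reads in KO_PP_22 and 4 reads in WT_NP_9. The Mpo locus overlaps the antisense gene Gm11505, and reads of both cannot be told apart without a strand setting. A count of 0 over the 3 WT libraries of PP allows up to 3 counts, or 0.0307 CPM.

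**Figure D1:**
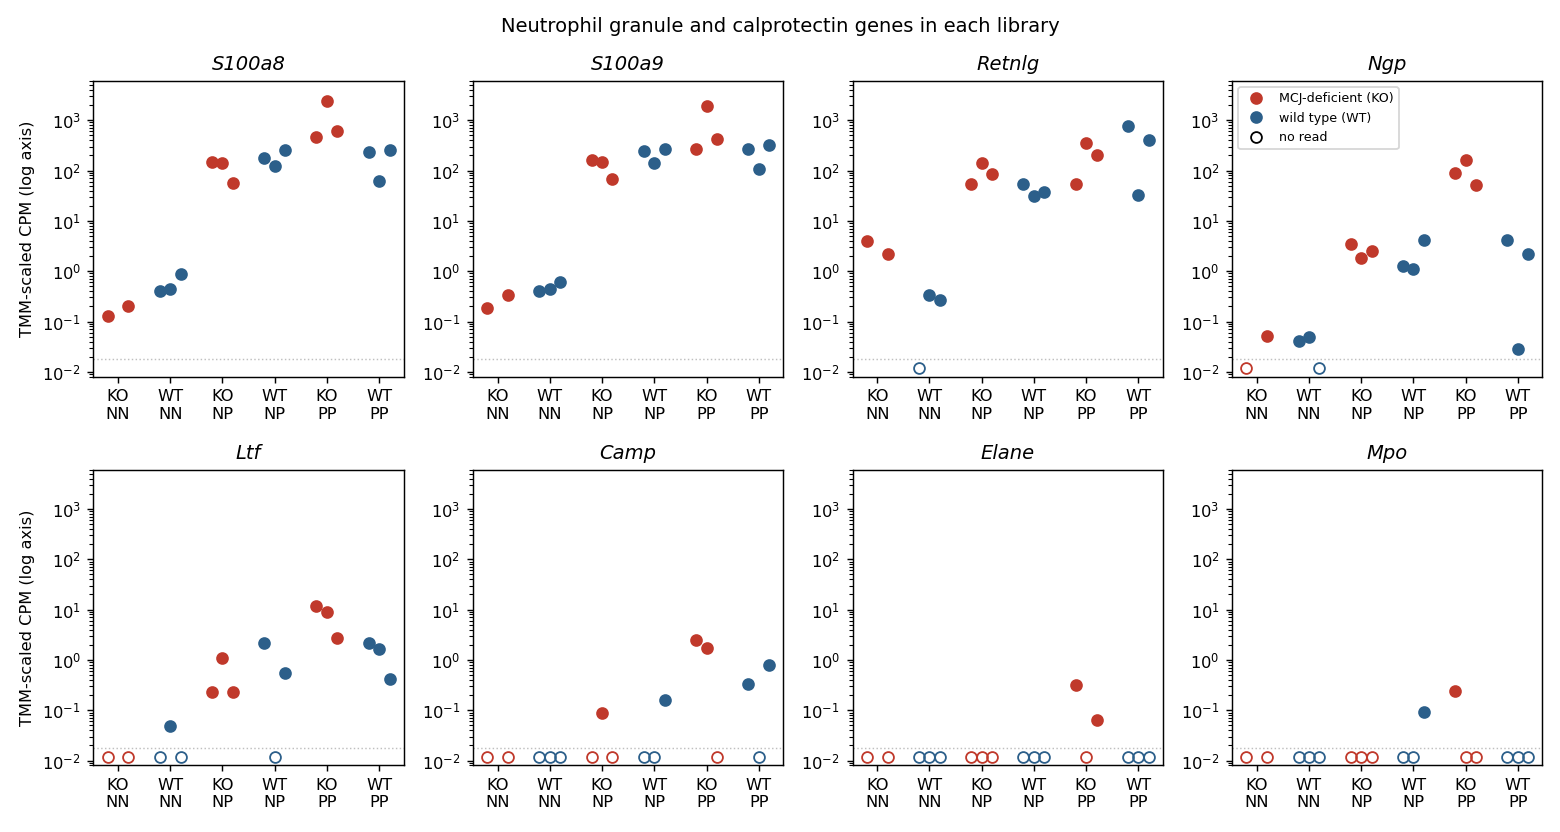
Level of each of the 8 genes in every library, as TMM-scaled CPM on a log axis, with MCJ-deficient (KO) libraries in red and wild-type (WT) libraries in blue. Open circles under the dotted line are libraries with no read; in PP, Ngp lies between 51.0 and 161 CPM in KO and between 0.029 and 4.08 CPM in WT.

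Per kilobase of transcript, which allows genes to be set side by side, the order of mean levels differed between the genotypes in PP. In KO of PP, S100a8 led at a mean of 2364 CPM per kb, followed by S100a9 at 1673, Retnlg at 348, Ngp at 82.3, Ltf at 2.85 and Camp at 1.84 CPM per kb. In WT of PP, Retnlg led at 675 CPM per kb, followed by S100a9 at 448, S100a8 at 376, Ngp at 1.71, Ltf at 0.518 and Camp at 0.492 CPM per kb. That mean of Retnlg rested on WT_PP_10 and WT_PP_12, at 1292 and 678 CPM per kb. In WT_PP_11, S100a9 led at 205 CPM per kb, with S100a8 at 130 and Retnlg at 54.9. In NP, S100a9 and S100a8 led in both genotypes, at 244 and 237 CPM per kb in KO and at 419 and 376 CPM per kb in WT. The spread between libraries of PP exceeded the gap between neighbours such as S100a8 and S100a9, whose SD were 1066 and 913 CPM around means of 1149 and 868 CPM in KO.

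Across the 6 groups, mean S100a8 ran from 0.169 ± 0.0525 CPM in KO of NN (SD, n = 2) and 0.575 ± 0.264 CPM in WT of NN (SD, n = 3) to 1149 ± 1066 CPM in KO of PP (SD, n = 3). The 3 groups between, KO of NP at 115 ± 51.5 CPM, WT of NP at 183 ± 65.5 CPM and WT of PP at 182.5 ± 104 CPM (SD, n = 3 each), overlapped one another. Mean Ngp was 101 ± 55.8 CPM in KO of PP and at most 2.61 ± 0.817 CPM (KO of NP) in the other groups (SD, n = 3 each). Mean Retnlg reached 206 ± 152 CPM in KO of PP and 400 ± 367 CPM in WT of PP (SD, n = 3 each), and these groups overlapped.

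The genes lie in small groups in the genome, given here in GRCm38. S100a8 (gene 20201, 3 exons) lies at chr3:90669071-90670034 on the plus strand, 22.6 kb from S100a9 (gene 20202, 3 exons) at chr3:90692630-90695721 on the minus strand. Camp (gene 12796) lies at chr9:109847377-109849456 on the minus strand, Ngp (gene 18054) at chr9:110419808-110423012 and Ltf (gene 17002) at chr9:111019292-111042766, both on the plus strand. Gaps of 570 kb separate Camp from Ngp and of 596 kb separate Ngp from Ltf. Retnlg (gene 245195) lies at chr16:48872608-48874498, Elane (gene 50701) at chr10:79886312-79888216 and Mpo (gene 17523) at chr11:87793784-87804412, all on the plus strand. Each of the 8 is a protein-coding gene.

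C/EBP factors and PU.1 are the textbook regulators of granulocyte genes. The 250 bases before each annotated start, taken from RefSeq on GRCm38.p6, were searched on both strands for 3 motifs. The C/EBP-like motif was TTGCNNAA, found in 9.56% of 32851 promoters. The PU.1-like motif was GAGGAAG, found in 10.6% of these promoters. The motif of GATA factors was AGATAA, found in 9.99%. The windows of S100a8, S100a9, Ngp and Ltf, the genes with an unadjusted p under 0.05 for KO over WT in PP, and of Retnlg, whose fold change there was negative, are printed 5′ to 3′ on the gene's own strand with motif matches in capitals. They cover chr3:90668821-90669070 (plus), chr3:90695722-90695971 (minus), chr9:110419558-110419807 (plus), chr9:111019042-111019291 (plus) and chr16:48872358-48872607 (plus).
S100a8: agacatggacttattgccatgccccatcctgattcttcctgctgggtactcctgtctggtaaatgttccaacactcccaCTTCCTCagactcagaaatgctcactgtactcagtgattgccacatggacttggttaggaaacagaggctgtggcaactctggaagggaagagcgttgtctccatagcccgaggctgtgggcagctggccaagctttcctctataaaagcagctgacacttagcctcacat
S100a9: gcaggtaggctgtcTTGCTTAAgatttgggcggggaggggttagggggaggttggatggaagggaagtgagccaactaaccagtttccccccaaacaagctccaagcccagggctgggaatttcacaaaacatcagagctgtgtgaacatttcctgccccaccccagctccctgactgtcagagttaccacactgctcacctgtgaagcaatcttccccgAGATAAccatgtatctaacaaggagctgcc
Ngp: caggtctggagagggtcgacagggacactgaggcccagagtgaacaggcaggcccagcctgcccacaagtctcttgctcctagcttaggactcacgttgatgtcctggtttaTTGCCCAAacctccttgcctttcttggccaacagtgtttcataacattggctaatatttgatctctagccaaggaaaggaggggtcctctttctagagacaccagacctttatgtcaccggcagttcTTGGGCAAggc
Ltf: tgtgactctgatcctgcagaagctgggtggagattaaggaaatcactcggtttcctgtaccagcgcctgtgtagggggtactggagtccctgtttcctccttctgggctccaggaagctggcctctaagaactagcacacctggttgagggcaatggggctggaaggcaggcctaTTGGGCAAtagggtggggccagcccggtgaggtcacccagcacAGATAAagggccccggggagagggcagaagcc
Retnlg: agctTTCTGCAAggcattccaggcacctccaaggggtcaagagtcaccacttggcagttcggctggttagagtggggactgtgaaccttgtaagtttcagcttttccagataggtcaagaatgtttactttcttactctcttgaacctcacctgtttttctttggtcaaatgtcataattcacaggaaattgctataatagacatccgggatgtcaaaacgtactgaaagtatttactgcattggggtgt
In S100a8 the match is PU.1-like, at positions -171 to -165 from the start. S100a9 holds a C/EBP-like match at -236 to -229 and a GATA match at -30 to -25. Ngp holds C/EBP-like matches at -138 to -131 and at -11 to -4. Ltf holds a C/EBP-like match at -75 to -68 and a GATA match at -32 to -27, and Retnlg holds a C/EBP-like match at -246 to -239. Elane holds 1 PU.1-like match and Mpo 2, and these letters are not in the window of Camp. No matches overlap in these windows, and a match is a description of the letters only.

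Loss of MCJ in NN came with no called gene of the group. Only S100a8, S100a9 and Retnlg passed the filter on low counts in NN, and 0 of these 3 were called, none had an unadjusted p under 0.05, and DESeq2 called 0 (edgeR quasi-likelihood test, Benjamini-Hochberg over all genes, called at an adjusted p under 0.05). Over all 13559 genes tested in NN, 0 were called, or 0%, while 1124 had an unadjusted p under 0.05 and DESeq2 called 293. Retnlg had a log2 fold change of 3.88 (SE 1.87, adjusted p = 0.674), with both KO libraries above all 3 WT libraries, as in 20.4% of genes. S100a8 had -1.80 (SE 1.75, adjusted p = 0.949) and S100a9 -0.96 (SE 1.67, adjusted p = 0.993). For both genes, both KO libraries lay below all WT libraries in CPM, as in 10.9% of genes. S100a9 reads themselves overlapped, at 7 and 13 in KO against 10, 9 and 16 in WT. Its separation in CPM came with TMM scaling factors of 1.27 and 1.161 in KO against 0.837, 0.6986 and 0.7711 in WT. Read counts behind S100a8 and S100a9 in NN were 23 or fewer per library.

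In NP, DSS without antibiotic, calprotectin transcripts were no higher in KO. Of the 8 genes, 5 passed the filter and 0 were called by edgeR, against 1.00% of the 14452 genes tested (145 genes), while 2 had an unadjusted p under 0.05 and DESeq2 called 1, Retnlg. S100a8 had a log2 fold change of -0.66 (SE 0.36, adjusted p = 0.648) and S100a9 of -0.78 (SE 0.34, adjusted p = 0.51). Ngp had 0.24 (SE 0.62, adjusted p = 0.963) and Ltf -0.79 (SE 1.43, adjusted p = 0.941). Retnlg had 1.17 (SE 0.34, adjusted p = 0.209), with an adjusted p of 0.0426 in DESeq2, of 0.0116 with no filter on low counts and of 0.0354 without KO_NP_19. None of these 5 genes had all KO libraries above all WT libraries, as 9.80% of the genes tested did.

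Other neutrophil genes split in the same comparison. Of the specific and gelatinase granule list, 10 of 12 genes were tested in NP and 1 rose while 1 fell in KO, with a median log2 fold change of 0.46 against 0.03 over all genes. Hp, the haemoglobin-binding haptoglobin, rose by 1.65 (SE 0.29, adjusted p = 0.0231), and Cd177, a neutrophil surface protein, fell by 1.29 on the log2 scale (SE 0.25, adjusted p = 0.038). Cd177 already had 120 to 340 reads per library in NN. Among 16 surface receptors and mature markers, 2 rose, the lectin receptors Clec4e by 2.49 (SE 0.26, adjusted p = 0.00275) and Clec4d by 1.57 (SE 0.28, adjusted p = 0.0245). The median of that list was 0.93, with 12 of 16 fold changes positive. Those of Cxcr2 (-0.12), Wfdc21 (-0.11), Asprv1 (-0.10) and Ly6g (-0.94) were negative, and none of these was called. Among 5 tested growth factor and chemoattractant genes, the neutrophil chemokine Cxcl2 rose by 1.81 (SE 0.34, adjusted p = 0.0299), and the list's median was 0.31. Summed macrophage markers were 81.3 to 348 CPM in KO of NP, against 23.2 to 38.1 CPM in WT, with 7 of 9 markers above WT in every KO library. Their part in these results was not tested.

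In PP, the fold changes of S100a8, S100a9, Ngp and Ltf were positive and large, yet no gene passed the adjusted test within that table. Of the 8 genes, 6 passed the filter and 0 were called by edgeR, while 4 had an unadjusted p under 0.05 and DESeq2 called 2, S100a8 and Ngp. Over all 14556 genes, edgeR called 0, or 0%, 758 had an unadjusted p under 0.05, and DESeq2 called 91. Ngp had a log2 fold change of 5.6 (SE 1.17, unadjusted p = 0.0012, adjusted p = 0.938) and stood at rank 17 of 14556 by p. Its adjusted p was 0.0443 in the fit of all 17 libraries and 0.0168 in DESeq2. S100a8 had 2.64 (SE 0.74, unadjusted p = 0.00682, adjusted p = 0.938), with an adjusted p of 0.17 in the fit of all 17 libraries and of 0.0116 in DESeq2.

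Ltf had a log2 fold change of 2.5 (SE 0.77, adjusted p = 0.938) and S100a9 of 1.88 (SE 0.75, adjusted p = 0.938) in PP. Camp had 1.90 (SE 1.95, adjusted p = 0.98) and Retnlg -0.96 (SE 0.96, adjusted p = 0.976). Every KO library lay above every WT library in 3 of the 6 tested genes, S100a8, Ngp and Ltf, as in 5.53% of all genes tested. For Elane, with 15 reads in KO and 0 in WT, the KO level was at least 4.43-fold higher. This takes 3 counts over all WT libraries of PP as the limit and the KO reads as exact. For Mpo, with 10 reads in KO and 0 in WT, the KO level was at least 2.95-fold higher on the same terms. KO_PP_22 held 13 of the 15 Elane reads and all Mpo reads.

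Leaving out single libraries moved several of these values. Without KO_PP_23, which had the highest S100a8, S100a9, Ngp and summed red blood cell marker levels of PP, S100a8 had 1.52 (adjusted p = 0.969), S100a9 0.532 (adjusted p = 1.0) and Ngp 5.06 (adjusted p = 0.657). Without WT_PP_11, which had the lowest S100a8, S100a9, Ngp and Retnlg levels of PP, Ngp had 5.03 (adjusted p = 0.137) and S100a8 2.23 (adjusted p = 0.788). Without WT_PP_10, Retnlg had -0.107 (adjusted p = 0.997). None of the 6 fits that left out 1 library of PP called any of the 6 tested genes.

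**Figure D2:**
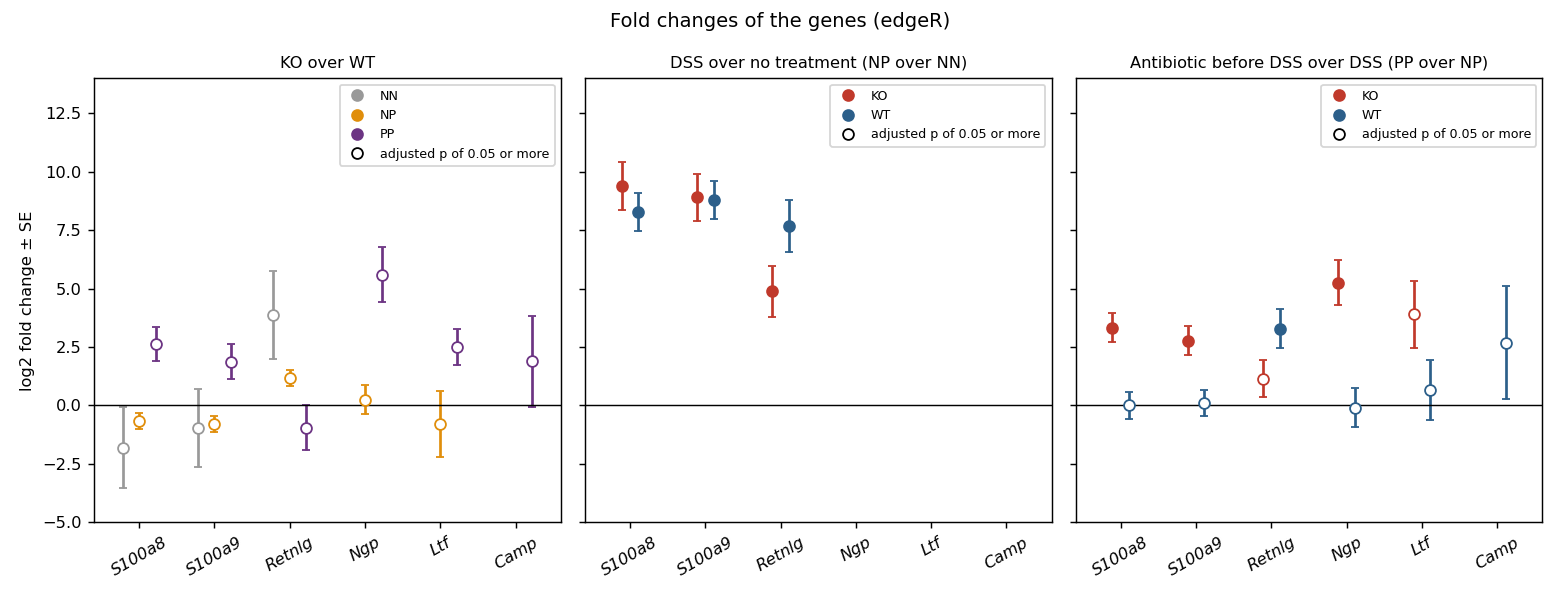
Log2 fold changes with their standard errors (edgeR) for the 6 genes that passed the filter, for KO over WT in each condition (left), DSS over no treatment (middle) and antibiotic before DSS over DSS (right). Filled circles have an adjusted p under 0.05, open circles do not, and genes with 3 or fewer reads in either group are left out; in PP, Ngp lies at 5.6 and Retnlg at -0.96.

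The MCJ effects of PP and NP were also set against each other in the fit of all 17 libraries. Of 6 tested genes, 0 of the differences were called by edgeR (0% of 16958 genes), 3 had an unadjusted p under 0.05, and DESeq2 called 2, while over all genes 886 had an unadjusted p under 0.05 and DESeq2 called 90. The difference of the log2 fold changes, PP minus NP, was 5.36 for Ngp (SE 1.21, adjusted p = 0.253) and 3.32 for S100a8 (SE 0.83, adjusted p = 0.348). With no filter on low counts, the adjusted p was 0.0207 for Ngp and 0.0475 for S100a8, and DESeq2 gave 0.00642 for Ngp and 0.022 for S100a8. Without WT_PP_11, the difference of Ngp was 4.78 (adjusted p = 0.0358). S100a9 had 2.68 (SE 0.82, adjusted p = 0.58), Ltf 3.24 (SE 1.86, adjusted p = 1.0) and Retnlg -2.13 (SE 1.10, adjusted p = 0.995). For NP minus NN, edgeR called 0 of 6 genes (0% of 16958), 0 had an unadjusted p under 0.05 and DESeq2 called 0, with 950 genes at an unadjusted p under 0.05 and 161 called by DESeq2 over all genes.

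The wider granule list had mostly positive fold changes in PP. All 12 specific and gelatinase granule genes were tested, 0 were called by edgeR, 11 had positive log2 fold changes, and the median was 2.02 against 0.01 over all genes. After Ngp, the smallest p belonged to Cd177 at 1.91 (SE 0.42, adjusted p = 0.938) and Lcn2, the iron-siderophore trap lipocalin, at 3.78 (SE 1.02, adjusted p = 0.938). Lcn2 had 541, 2600 and 213 CPM in KO of PP, against 99.5, 18.0 and 122 CPM in WT, and did not overlap. Surface receptors and mature markers had a median of 0.71 over 16 tested genes, with 0 called and 13 positive, led by Wfdc21 at 3.27 (SE 0.58, adjusted p = 0.791). Wfdc21, a protease-inhibitor-like gene of neutrophils, had 37.8, 87.6 and 28.2 CPM in KO of PP, against 8.49, 2.40 and 5.08 CPM in WT.

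The remaining lists had no called gene in PP either. The 5 calprotectin receptor genes, among them the Toll-like receptor Tlr4, had a median of -0.01 in PP with 0 called. The 5 granulocyte transcription factor genes had a median of 0.37 with 0 called, with Cebpa at 0.55 (SE 0.34) and Cebpe, the factor of late granule genes, at 0.37 (SE 1.25). Growth factor and chemoattractant genes had a median of 1.19 over 6 with 0 called, and Csf3, the granulocyte growth factor G-CSF, had 2.09 (SE 0.87, adjusted p = 0.938). Of the 7 azurophil genes, 2 passed the filter, the proteinase gene Prtn3 at 1.51 (SE 1.31; 159, 70 and 129 reads in KO, against 53, 0 and 58 in WT) and the inhibitor gene Serpinb1a at 0.32 (SE 0.37). Transcripts of red blood cells moved with the granule genes, at 752 to 11600 CPM in KO of PP against 257 to 347 CPM in WT, with all 4 measured markers above WT in every KO library. Monocyte markers also summed to more in every KO library of PP, at 1270 to 1430 CPM against 597 to 1230 CPM in WT, with 4 of 5 means higher, no marker above WT in every KO library and 0 of 5 called (median 0.44). Their sum was already 547 to 930 CPM in KO of NN and 1230 to 2060 CPM in WT of NN, where the marker Ccr2 had no read. The part of red blood cell and monocyte markers in the contrast of the granule and calprotectin genes was not tested. Erythroid and early marrow precursor markers, such as Cd34 and Myb, summed to 18.9 to 36.2 CPM in KO of PP, against 43.4 to 63.0 CPM in WT. Single markers went both ways, with 3 of 6 means higher in KO, 1 marker above WT in every KO library, and a median log2 fold change of 0.64 over the 4 tested.

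**Figure D3:**
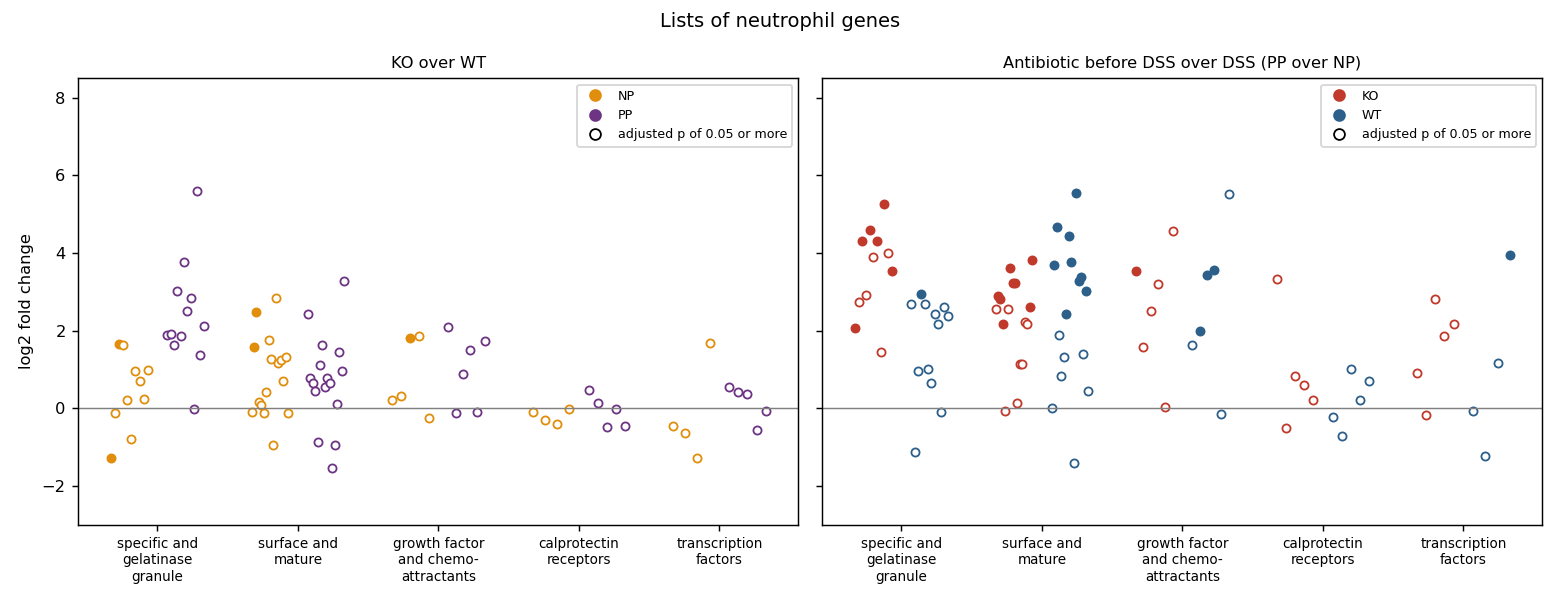
Log2 fold change of each tested gene of 5 neutrophil lists, for KO over WT in NP and PP (left) and for antibiotic before DSS over DSS in KO and WT (right), without genes that had 3 or fewer reads in a group. Filled circles have an adjusted p under 0.05 (edgeR) and open circles do not; 11 of the 12 granule genes in PP lie above 0 in KO over WT, with a median of 2.02.

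DSS, set against NN, raised both calprotectin genes in both genotypes. In KO, S100a8 averaged 115 ± 51.5 CPM in NP (SD, n = 3) and 0.169 ± 0.0525 CPM in NN (SD, n = 2), a log2 fold change of 9.39 (SE 1.04, adjusted p = 0.00026). S100a9 rose by 8.91 in KO (adjusted p = 0.00026), and S100a8 had the smallest p of all 16958 genes tested. In WT, S100a8 rose by 8.29 (adjusted p = 4.51e-05) and S100a9 by 8.79 (adjusted p = 3.8e-05). By library, S100a8 in KO had 56.3 to 151 CPM in NP, against 0.132 to 0.206 CPM in NN. For WT the range was 121 to 251 CPM in NP, against 0.409 to 0.879 CPM in NN.

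Markers of other cell types moved in the same comparison. Monocyte markers were called higher in 4 of 5 genes in KO (median log2 fold change 5.58) and in 4 of 5 in WT (median 5.24, or 4.02 with genes at 3 or fewer reads in a group at their bound), while their summed level overlapped between NP and NN in both genotypes. Macrophage markers were called higher in 5 of 9 genes in KO (median 5.1) and in 3 of 9 in WT (median 2.04). In KO, 2 of 4 red blood cell, 1 of 5 fibroblast and 2 of 4 endothelium markers were called higher, and 0 of each in WT. Their part in the rise of S100a8 and S100a9 was not tested.

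Of 6 tested genes, DSS raised 4 in KO, S100a8, S100a9, Ngp and Retnlg, against 2.04% of all genes called higher. The same 4 genes were called in WT, against 2.25% of all genes. Ngp had 316 reads in KO of NP against 2 in NN, a ratio of 104 (95% counting interval 28.5 to 862, adjusted p = 0.0252), and in WT 267 reads against 2, a ratio of 84.2 (23.1 to 699, adjusted p = 0.0196). Ltf had 57 reads in KO of NP against 0, at least 12.5-fold higher, and in WT 91 reads against 1, a ratio of 57.4 (10.0 to 2290), but was called in neither genotype by edgeR (adjusted p = 0.22 in KO and 0.123 in WT; DESeq2 0.0158 and 0.0129). Retnlg rose by 4.89 in KO (SE 1.09, adjusted p = 0.0204) and by 7.67 in WT (SE 1.12, adjusted p = 0.00141). The KO calls of Ngp and Retnlg were lost without either KO library of NN, and that of Retnlg also without KO_NP_20. The WT call of Ngp was lost without any of WT_NN_1, WT_NN_2, WT_NN_3 or WT_NP_9, and in a fit of the 2 WT groups alone (adjusted p = 0.233).

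Of the wider lists, DSS raised 7 of 12 specific and gelatinase granule genes in KO and 7 of 12 in WT. Their median log2 fold change was 6.36 in KO and 5.40 in WT, or 5.66 and 4.5 with genes at 3 or fewer reads in a group set to their bound, against 0.02 and 0.14 over all genes. Lcn2 rose by 6.51 in KO (SE 1.23, adjusted p = 0.00609), and Hp by 7.34 in KO (SE 1.15, adjusted p = 0.00175) and by 5.17 in WT (SE 0.88, adjusted p = 0.00416). DSS raised 12 of 16 surface and mature markers in each genotype, among them Clec4d by 8.57 in KO (SE 1.02, adjusted p = 0.000318) and by 7.01 in WT (SE 0.84, adjusted p = 0.000249). Chemoattractant genes rose as well, 3 of 6 in each genotype, with Cxcl2 at 6.4 in KO (SE 0.94, adjusted p = 0.00123) and 5.13 in WT (SE 0.74, adjusted p = 0.00129). Of the 5 transcription factor genes, Spi1, which encodes PU.1, rose in both genotypes and was the only one called, by 5.07 in KO (SE 0.99, adjusted p = 0.00777). Of the 5 calprotectin receptor genes, the scavenger receptor Cd36 was the only one called, at 4.28 in KO (SE 1.03, adjusted p = 0.0345) and 4.11 in WT (SE 0.86, adjusted p = 0.0159).

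Antibiotic before DSS, compared with DSS alone, raised S100a8, S100a9 and Ngp in KO and Retnlg in WT. In KO, 3 of 6 tested genes rose, against 1.34% of all genes called higher. Ngp rose by 5.26 (SE 0.95, adjusted p = 0.0157), S100a8 by 3.32 (SE 0.62, adjusted p = 0.0182) and S100a9 by 2.78 (SE 0.61, adjusted p = 0.0369). Ltf had 3.90 (SE 1.44, adjusted p = 0.203) and Retnlg 1.15 (SE 0.78, adjusted p = 0.55). DESeq2 and a fit of the 2 KO groups alone did call Ltf, the smaller adjusted p being 0.0269. Camp had 166 reads in KO of PP against 3 in KO of NP, a ratio of 58.6 (95% counting interval 19.7 to 287), without being called (adjusted p = 0.394).

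In WT, 1 of 6 tested genes rose, against 3.49% of all genes called higher. That gene was Retnlg, at 3.28 (SE 0.84, adjusted p = 0.0332). S100a8 had -0.00106 (adjusted p = 1.0), S100a9 0.10 (adjusted p = 0.981), Ngp -0.09 (adjusted p = 0.993) and Ltf 0.66 (adjusted p = 0.905). The differences between the genotypes are those given above as PP minus NP, of which none passed in edgeR. Without WT_PP_11 the Retnlg call in WT had an adjusted p of 0.00133, and it was lost without any of the other 5 WT libraries of NP and PP (0.0814 to 0.221) and in a fit of the 2 WT groups alone (0.0654). In KO, all 3 calls were lost without any 1 KO library of NP (0.0704 to 0.21), and those of S100a8 and S100a9 also without KO_PP_23 (0.0623 and 0.189). That of S100a9 was lost in a fit of the 2 KO groups alone (0.0507).

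Markers of other cell types moved in this comparison too. Red blood cell markers were called higher in 4 of 4 genes in KO (median 7.12), with sums of 752 to 11600 CPM in PP against 33.5 to 69.5 CPM in NP, and in 2 of 4 in WT (median 2.09). Macrophage markers were called higher in 0 of 9 genes in KO (median 1.39) and in 6 of 9 in WT (median 5.28), monocyte markers in 2 of 5 in KO (median 1.62) and in 3 of 5 in WT (median 4.43), and eosinophil markers in 0 of 3 tested in KO and in 2 of 3 in WT (median 6.65). Their part in the calls of S100a8, S100a9, Ngp and Retnlg was not tested.

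The wider lists were counted in the same comparison, with no test of the difference between the genotypes. Over all genes, 1.34% were called higher in KO and 3.49% in WT, with medians of 0.01 and 0.06. Of the specific and gelatinase granule list, 6 of 12 rose in KO and 1 of 12 in WT, with medians of 3.96 and 2.28. Cd177 rose by 2.06 in KO (SE 0.40, adjusted p = 0.0202) and had -1.12 in WT (SE 0.39, adjusted p = 0.123), and Mmp8, a neutrophil collagenase, rose by 4.30 in KO (SE 0.79, adjusted p = 0.0176) and had 2.42 in WT (SE 0.73, adjusted p = 0.0749). Of surface and mature markers, 8 of 16 rose in KO and 9 of 16 in WT, with medians of 2.56 and 2.72. Clec4d rose by 2.89 in KO (SE 0.61, adjusted p = 0.0344) and by 3.68 in WT (SE 0.63, adjusted p = 0.00317), and Il1r2, the decoy receptor for interleukin 1, by 3.22 in KO (SE 0.63, adjusted p = 0.0237) and 3.77 in WT (SE 0.65, adjusted p = 0.00317). Csf3 rose by 3.55 in KO (SE 0.72, adjusted p = 0.0261) and had 1.64 in WT (SE 0.67, adjusted p = 0.206). Of the resistin family, Retnlb, an epithelial member, rose by 2.62 in KO (SE 0.52, adjusted p = 0.0237) and by 3.59 in WT (SE 0.54, adjusted p = 0.00146), and Retnla rose by 5.05 in WT (SE 0.97, adjusted p = 0.00789) and had -0.09 in KO. Retnla and Retnlb are relatives of Retnlg in sequence, and how reads shared among them were counted is not given in the sources used here.

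Set against NN, antibiotic and DSS together raised 5 of 6 tested genes in KO, against 6.52% of all genes called higher, and the same 5 in WT, against 12.8%. These were S100a8, S100a9, Ngp, Ltf and Retnlg. Ngp had 11352 reads in KO of PP against 2 in NN, a ratio of 3960 (95% counting interval 1100 to 32700), and in WT 195 reads against 2, a ratio of 71.0 (19.4 to 590). Those WT reads were 123, 1 and 71 by library. WT_PP_11, at 0.029 CPM, lay within the range of the WT libraries of NN (0 to 0.0486 CPM), so that these groups overlapped. S100a8 rose by 12.70 in KO (adjusted p = 1.02e-05) and by 8.29 in WT (adjusted p = 5.4e-06). Retnlg rose by 6.05 in KO (adjusted p = 0.00247) and by 10.95 in WT (adjusted p = 1.59e-05). Ltf was at least 211-fold higher in KO (adjusted p = 0.0115), and in WT had a ratio of 99.7 (17.6 to 3970, adjusted p = 0.0216). Camp was at least 38.6-fold higher in KO and at least 8.73-fold higher in WT, and was not called in KO (adjusted p = 0.187) or WT (adjusted p = 0.145). The KO call of Ltf was lost without KO_NN_13 (0.126) or KO_NN_14 (0.115), and that of Retnlg without KO_NN_14 (0.0541). The WT call of Ltf was lost without WT_NN_1, WT_NN_3 or WT_PP_10 (0.055 to 0.0665) and in a fit of the 2 WT groups alone (0.0736). Of the azurophil list, 2 of 7 genes were tested and Prtn3 was called higher in WT, with 53, 0 and 58 reads in PP against 0 in each library of NN (adjusted p = 0.0494). The NN libraries enter both this comparison and that of DSS with NN.

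Ratios between genes within a library do not depend on how libraries are scaled. The ratios given here were chosen after their values were seen. Exact two-sided permutation tests of KO against WT, 4 ratios in each of NP and PP, gave p of 0.1 to 0.6 (0.133 to 0.6 adjusted over the 8 tests), and 3 libraries against 3 cannot go below 0.1. S100a8 reads exceeded S100a9 reads in KO of PP, at ratios of 1.74, 1.24 and 1.44, against 0.868, 0.595 and 0.779 in WT of PP. All 6 libraries of NP had ratios under 1. Ngp reads per S100a8 read were 0.192, 0.0677 and 0.0845 in KO of PP, against 0.0177, 0.000458 and 0.00846 in WT. Retnlg reads per S100a8 read were 0.116, 0.151 and 0.34 in KO of PP, against 3.32, 0.516 and 1.58 in WT. In NP the order was the other way, with 0.353, 1.01 and 1.51 in KO against 0.309, 0.259 and 0.152 in WT.

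S100a8 was also set against Csf3r, which encodes the receptor for G-CSF and is carried by mature neutrophils. S100a8 had 17.8, 30 and 28.3 reads per Csf3r read in KO of PP, against 5.42, 4.20 and 7.22 in WT of PP. In NP it had 14.7, 15.6 and 6.22 in KO, against 22.5, 22.9 and 20.7 in WT. The genotypes did not overlap in either condition, and KO was higher in PP and lower in NP. Csf3r itself had 26.2, 79.4 and 21.3 CPM in KO of PP, against 42.5, 15.0 and 35.2 CPM in WT, and overlapped. Both calprotectin genes together made up 82.2, 89.0 and 79.8% of the summed level of the 8 genes in KO of PP, against 39.1, 83.2 and 58.9% in WT.

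**Figure D4:**
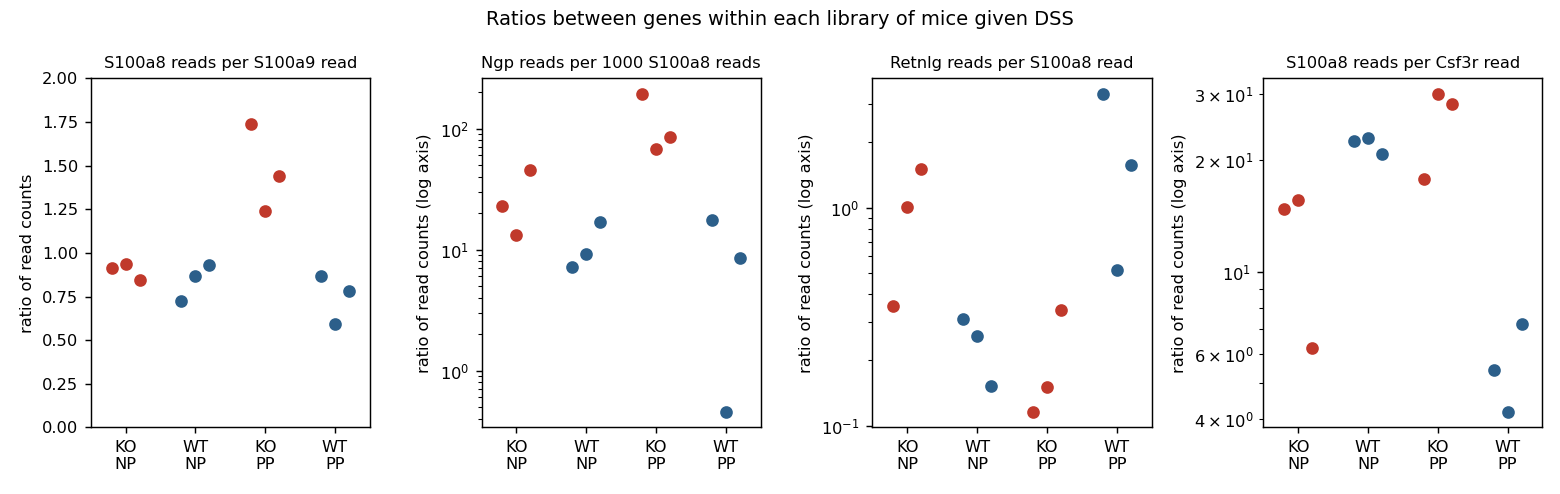
Ratios of read counts between genes within each library of mice given DSS, in NP and PP, with KO in red and WT in blue; the first panel has a linear axis from 0 and the others a log axis. S100a8 exceeds S100a9 in the 3 KO libraries of PP (1.24 to 1.74) and in no WT library of PP (0.595 to 0.868).

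The genes most like S100a8 over the 17 libraries, by Pearson correlation of log2(CPM + 0.5), were Csf3r (0.967), Hdc (0.96), Csf3 (0.96), Ifitm1 (0.959) and Ccl2 (0.959), among genes outside the group. Within the group, S100a9 stood at 0.996, Retnlg at 0.903, Ngp at 0.797, Ltf at 0.741 and Camp at 0.54. NN and DSS libraries form separate clusters, and the values over all 17 span that gap. Over the 12 libraries of mice given DSS, S100a9 stood at 0.967, Ngp at 0.883 and Retnlg at 0.491, and the leading outside genes were Eif4ebp1 (0.953) and Wfdc21 (0.942). The genes most like Ngp over the 17 libraries were Wfdc21 (0.937), Saa3 (0.927), Ext1 (0.911), 2210408F21Rik (0.91) and Mmp8 (0.908). Over the 12 DSS libraries, Ngp stood at 0.364 with Retnlg and at 0.935 with Lcn2. These are descriptions across libraries that share preparation and genotype groups.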

How the data were processed

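RNA of 17 colon macrophage preparations was measured by RNA-seq of Trizol-extracted RNA (NuGEN Universal Plus mRNA-Seq), per the labels' protocols. The authors deposited 3 tables of raw read counts per NCBI gene number, 1 for each condition, with 29194744 to 37083344 counts per library. Base calling with CASAVA 1.8.2, FastQC, Trim Galore, alignment to mm10 with STAR 2.5.4 and DESeq2 are named in the submitters' processing notes. The counting program, annotation and strand setting are not given in the sources used here.

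Symbols were joined from RefSeq (25275 genes) and GENCODE M21 (18), and 1886 gene numbers, with 1.39 to 7.32% of counts, stayed unnamed. The deposited counts were filtered with filterByExpr, scaled with TMM factors and tested with the edgeR 4.0.16 quasi-likelihood test in R 4.3.3, with Benjamini-Hochberg adjustment over all genes tested and a call at an adjusted p under 0.05. KO over WT was fitted within each table, and all other effects and differences of effects in 1 fit of the 17 libraries. Standard errors are the log2 fold change over the root of F. Levels are TMM-scaled CPM over all genes, and levels per kb use the longest annotated transcript. The fits were run on simulated data with known changes in well-expressed genes and the same dispersion for every gene. Genes with few reads or a wide spread between libraries are not covered by that run. Alternatives were DESeq2 1.42.0, its size factors in edgeR, no filter on low counts, other samples in the fit, leaving out each library and, chosen after seeing the data, a block of mouse numbers.

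Where a group had 0 reads, folds are bounds against 3 counts over the group, and with 1 to 3 reads, ratios carry an exact 95% binomial interval (scipy 1.17.1, Python 3.11.15). The bounds take the reads of the other group as exact, and the intervals cover counting error only. Nothing in the labels says whether libraries of a group are independent beyond the mice they name. The edgeR p-values set a difference between groups against the spread estimated from the libraries in each fit, with each library taken as independent. Mouse numbers in the titles recur across groups (1 and 2 in KO_NN, KO_NP and WT_NN, 3 in KO_NP and WT_NN, 10 in KO_PP and WT_PP), with nothing that ties equal numbers to a shared animal, litter or day, so no pairing was used. Promoters came from RefSeq on GRCm38.p6, the build of mm10, and protein sequences were not used here. Beside the 8 genes, Dnajc15 and up to 4 genes of a list with the smallest p in a comparison are named (with their value in the other genotype), with the 5 genes most like S100a8 and Ngp. Lcn2, Wfdc21 and Csf3r values by library and the ratios were chosen after their values were seen. The surface and mature markers with negative fold changes in NP were named on the same terms. The 8 genes and the lists were chosen with earlier results of these data known.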

Additional observations from a re-analysis of the deposited data

Results flagged for a closer look

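S100a8 stood on opposite sides of WT in NN and in PP: every KO library lay below every WT library in NN (0.132 and 0.206 CPM against 0.409 to 0.879 CPM) and above every WT library in PP (467 to 2378 CPM against 63.2 to 254 CPM). Over all genes tested, 10.9% lay below WT in this way in NN and 5.53% lay above WT in PP. Neither S100a8 effect was called (edgeR, adjusted p = 0.949 in NN and 0.938 in PP). The log2 ratio of group means (CPM + 0.5) differed by -3.34 between the conditions, NN minus PP. The difference was not tested. The NN levels of S100a8 rest on 23 or fewer reads per library.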

How the results depend on the processing

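Depth limits Ngp, Ltf and Camp in NN and Elane and Mpo throughout, where most libraries held 0 to 3 reads, and groups of 2 or 3 libraries limit all calls. Mouse numbers 1 and 2 recur in KO and WT of NN and in KO of NP. The deviations of same-numbered libraries from their group means had correlations of -0.0345 to 0.0239 across genes. With 2 libraries in KO of NN, the deviations of 1 library mirror those of the other. These correlations cannot tell whether equal numbers stand for a shared animal, litter or day. With the mouse number as a replicate block, chosen after seeing the data and leaving 1 residual degree of freedom, KO over WT in NN gave 0 genes called, and DSS in KO gave 1756 genes and 4 of the 8 genes called. The other pairs of groups compared share fewer than 2 numbers, and the differences of MCJ effects could not be fitted with the block. Scaling with DESeq2 size factors in edgeR changed no count of calls by over 1.5 times.

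Counts of the 8 genes called moved as follows. For KO over WT in NP, where edgeR called 0, no filter and DESeq2 each called 1, and leaving out 1 library gave 0 to 1. In PP, edgeR called 0, DESeq2 2 and the fit of all 17 libraries 1. For PP minus NP, edgeR called 0, no filter and DESeq2 2 each, and leaving out 1 library gave 0 to 1. For DSS in KO, 4 were called, and 2 to 4 with 1 library left out. For antibiotic before DSS, 3 were called in KO (0 to 3 with 1 library left out) and 1 in WT (0 to 1, and 0 in a fit of the groups compared). In KO, DESeq2 and a fit of the groups compared also called Ltf there. For antibiotic and DSS together, 5 were called in KO (3 to 5) and 5 in WT (3 in a fit of the groups compared).

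Counts over all genes moved more. KO over WT gave 0 in NN (9 with no filter, 293 in DESeq2, 3 in the fit of all 17, 0 to 1 with 1 library left out), 145 in NP (353, 364, 1, and 20 to 203) and 0 in PP (1, 91, 8, and 0 to 6). DSS gave 352 in KO (813 in DESeq2, 1029 in a fit of the groups compared, 45 to 340 with 1 library left out) and 414 in WT (1209, 42, and 267 to 769). Antibiotic before DSS gave 294 in KO (558 with no filter, 1005 in DESeq2, 802 in a fit of the groups compared, 12 to 634 with 1 left out) and 748 in WT (1458 in DESeq2, 215 to 1313). Antibiotic and DSS gave 1746 in KO (2858 in DESeq2, 552 to 1971) and 3409 in WT (1612 in a fit of the groups compared, 2118 to 3640). Differences of MCJ effects gave 0 for NP minus NN (16 with no filter, 161 in DESeq2, 1 in a fit of the groups compared, 0 to 41) and 0 for PP minus NP (36, 90, and 0 to 29). The cause of these moves was not tested.

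Signs turned only in fold changes that were not called. For KO over WT in NP, Ngp (0.24) ran from -0.0921 to 1.14 and Ltf (-0.79) from -1.95 to 0.91 with 1 library left out. For antibiotic before DSS in WT, S100a8 (-0.00106) had 0.0664 with DESeq2 size factors, 0.0665 in DESeq2, 0.00943 in a fit of the groups compared and -0.314 to 0.408 with 1 library left out; S100a9 ran from -0.225 to 0.445 and Ngp from -1.03 to 0.812. For NP minus NN, S100a9 ran from -0.241 to 0.609, Ngp from -0.55 to 3.36 and Ltf from -0.834 to 3.24. For PP minus NP, Camp ran from -1.22 to 5.90. With Spearman correlation in place of Pearson, and over the 12 DSS libraries, the genes most like S100a8 and Ngp changed.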

Other observations

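Ly6g, the surface antigen by which mouse neutrophils are commonly gated, differed from S100a8 and Ngp in its level in NN. It was singled out after its values were seen. In NN it had 798 and 1084 reads in KO and 1461, 1315 and 621 reads in WT, where S100a8 had 5 to 23 reads and Csf3r at most 1. Cd177 and Slpi, of the specific and gelatinase granule list, also had reads in every library of NN, at 120 to 340 and 120 to 335. They too were picked after their values were seen. In NP, Ly6g had 40.3, 98.4 and 30.1 CPM in KO, against 140, 88.4 and 96.6 CPM in WT, with overlap. In PP, Ly6g had 48.2, 80 and 58.1 CPM in KO, against 32.3, 65.4 and 23.8 CPM in WT, with overlap. Its log2 fold changes for KO over WT were -1.06 in NN, -0.94 in NP and 0.64 in PP, none called by edgeR. Those of S100a8 had the same signs, at -1.80, -0.66 and 2.64. Retnla, a gene of alternatively activated macrophages and eosinophils, had 1.93, 1.01 and 2.38 CPM in KO of PP, against 28.8, 4.84 and 17 CPM in WT (log2 fold change -3.21, SE 0.69, adjusted p = 0.938), and had no read in the 3 WT libraries of NN.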
